A study of Mus musculus with 36 samples.

Results

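The liver of old Myc+/- mice was compared with the liver of old wild type mice: 6 of the series' 36 arrays, which are all those titled as 24-month liver. The Myc+/- group was 1 RNA pool from 8 male C57Bl/6 mice that were heterozygous for Myc, and the wild type group was 1 RNA pool from 5 male C57Bl/6 mice without that allele. Both were 24 months old, and each pool was hybridized to 3 technical arrays. Liver pools of 5-month males (5 Myc+/- mice and 6 wild type mice, 3 arrays each) served as the younger counterpart, and the other 24 arrays held skeletal muscle and adipose tissue of the same 4 cohorts. The animals were kept pathogen-free on a 12 h light-dark cycle, and the labels name no treatment, and no driver or cell type for the Myc allele. The series title links lower Myc expression to longer life and better health in age, which is the question the comparison bears on.

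Myc is a transcription factor that acts with its partner Max at E-box sequences. It is known for raising the genes of ribosome production, nucleotide and amino acid metabolism and cell division, and it is low in resting adult liver and rises when the liver regenerates. Hepatocytes, the main cells of the liver, make most plasma proteins, bile acids and cholesterol, burn and store fat, and change their secretion within hours of an inflammatory signal. Many hepatocyte genes also follow the pulsed growth hormone of males.

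Levels are on the log2 scale of RMA, so a difference of 1 is a doubling, and a level does not compare genes with each other. A probe set was called where limma, fitted to all 36 arrays, gave a Benjamini-Hochberg adjusted p below 0.05 for Myc+/- minus wild type and the pool means differed at least 1.5-fold. Such a call sets one mixture of RNA against another, and its error is that of repeated hybridization. With 1 pool for each genotype, the spread between mice was not measured, and a mouse with an unusual liver can move its pool. In bulk tissue, fewer cells of a type and less RNA in each cell cannot be told apart. "Rose" and "fell" are used below for called genes.

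The 2 pools were alike for most genes. Array medians lay between 6.95 and 7.04, the pools' levels correlated at r = 0.991 across genes (genes are not independent replicates), and 80.2% of the 13073 tested probe sets differed by less than 0.2. By the call rule 237 probe sets differed, 1.81% of those tested, of which 141 were higher (1.08%) and 96 lower (0.734%) in Myc+/- liver. By gene, 139 were higher (1.17% of 11923 genes) and 89 lower (0.746%). At least 2-fold differences were found for 36 genes that rose and 27 that fell. The arrays of the pools did not overlap for 227 of the 228 called genes, while they did not overlap for 3957 of all tested probe sets (30.3%). The calls used these same arrays, so that the count of 227 is no support. Albumin, the main plasma protein, was at 14.82 in Myc+/- liver and 14.79 in wild type liver, and 0 of 15 hepatocyte markers were called. Their summed linear level was 269561 to 270766 in the Myc+/- arrays and 270122 to 272467 in the wild type arrays.

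**Figure D1:**
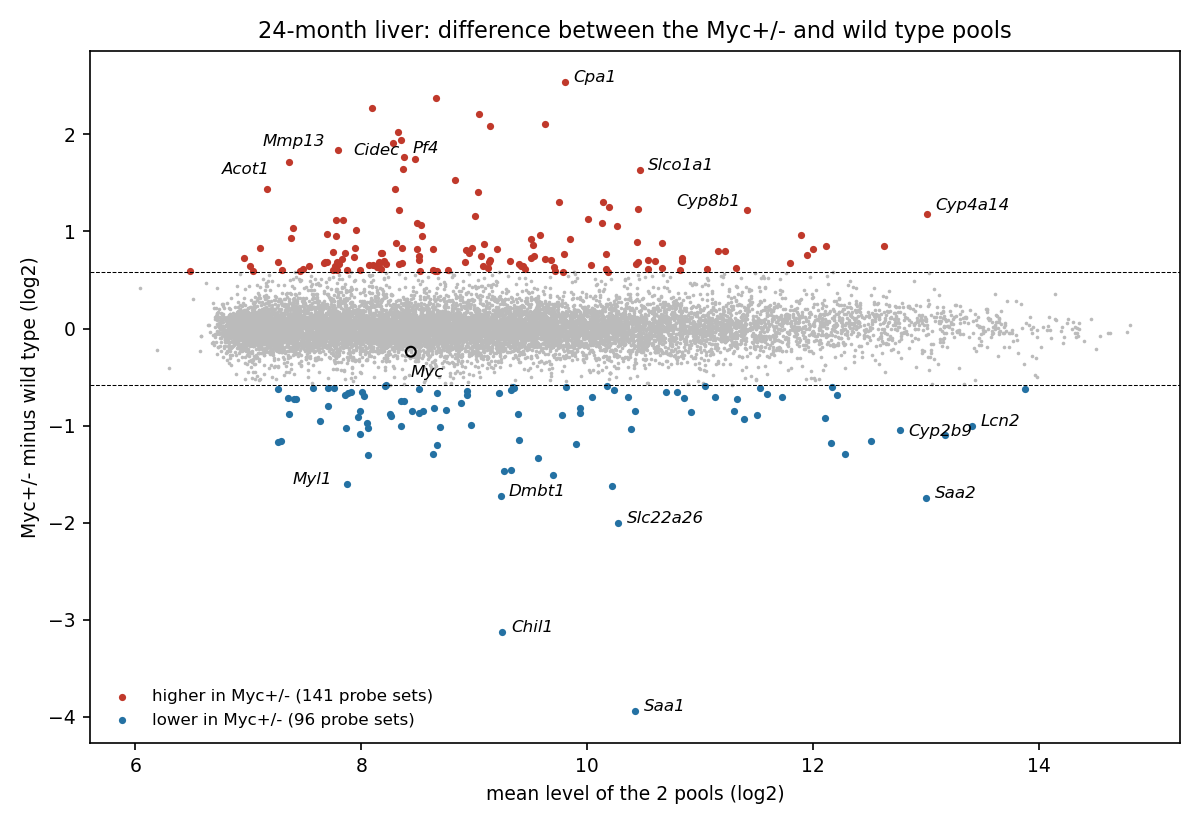
Difference between the Myc+/- and wild type pools of 24-month liver (log2, vertical axis) against the mean level of the 2 pools (log2, horizontal axis), 1 point per tested probe set. Red points are the 141 probe sets called higher, blue points the 96 called lower, grey points were not called, dashed lines mark 1.5-fold, and the open circle is Myc. Saa1 and Chil1 lie farthest below 0 and Cpa1 farthest above it.

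A second test used the 12 pool means of the series. Its error came from how far the genotype difference varied between the ages in muscle and adipose tissue (2 residual degrees of freedom). Each liver group is a single pool, so the test assumes that liver varies likewise. Its standard error was above that of the arrays for some genes, such as Saa1 (0.469 against 0.155). For others it was below, such as Clps (0.089 against 0.130) and Sycn (0.108 against 0.141). It does not measure the spread between liver pools. By this limma fit 34 probe sets had an adjusted p below 0.05 in 24-month liver (0.26%), 19 higher and 15 lower, and 1543 (11.8%) had an unadjusted p below 0.05. Of the 228 called genes, 31 passed it. Genes that passed this pool-level test are named as such below where their array values are printed. The filter kept probe sets by their mean over all liver arrays, and a high pool helped some of them pass. For 12 of the 141 called higher and 4 of the 34 that passed at the pool level (Cel, Rnase1, Mmp13 and 2210010C04Rik), the mean of the other 3 liver pools lay below 6.87, the lowest mean tested. The same held for 7 of the 96 called lower without the 24-month wild type pool. Among them were Dmbt1, which also passed at the pool level, Muc1 and a second probe set of Igha. Such calls are no support.

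Myc itself was at 8.31, 8.21 and 8.44 in the Myc+/- arrays, against 8.53, 8.55 and 8.60 in the wild type arrays. All 3 Myc+/- arrays were below all 3 wild type arrays, but the difference of -0.24 was not called (limma on arrays, adjusted p = 0.078). In the 5-month pools the difference was -0.60 and was called. Pvt1, the noncoding gene next to Myc, averaged 7.60 in Myc+/- liver and 7.24 in wild type liver, a difference of 0.36 that did not reach 1.5-fold. It was 0.69 and called at 5 months. Which parts of the locus these probe sets cover on the mutant allele was not stated, so they are a limited check of the genotype.

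Genes that Myc is known to drive differed little. Of 29 tested members of a list of ribosome biogenesis genes, 0 were called, 22 lay below 0 and their median difference was -0.11, where the median of all tested genes was 0.01. Without a minimum fold, limma on arrays gave 6 of them an adjusted p below 0.05, all lower; by that rule 6.1% of all 11923 genes were lower and 9.15% higher. By the pool-level limma 0 passed, with an unadjusted p below 0.05 for 6. Those lower on the arrays included Nop58, a core protein of the snoRNPs that modify ribosomal RNA, at -0.46, and Tsr1, needed for the small ribosomal subunit, at -0.35. Of 29 cytosolic ribosomal protein genes, 0 were called either, 22 lay below 0 and the median was -0.12. With no minimum fold 1 of these was higher and 8 were lower, led by Rps25 at -0.44 and Rps9 at -0.42. The pool-level limma passed 0 of the 29, and 10 had an unadjusted p below 0.05. At 5 months the same medians were 0.03 for biogenesis and -0.15 for ribosomal proteins. Among 28 Myc-linked growth and metabolism genes, 1 was called: Ccnd2, a D-type cyclin of G1, which averaged 10.03 ± 0.025 in Myc+/- liver and 9.32 ± 0.036 in wild type liver (SD over 3 technical arrays each), with no overlap. Srm, the spermidine synthase, was at -0.31 and Tfrc, the transferrin receptor, at -0.38, both short of 1.5-fold.

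Acute phase genes, the plasma proteins that the liver secretes more of in inflammation, were lower as a group. Of 27 tested members, 10 fell, 0 rose, and 26 lay below 0, with a median of -0.50. Saa1, a serum amyloid A carried on high-density lipoprotein, was at 8.49, 8.27 and 8.59 in the Myc+/- arrays, against 12.30, 12.55 and 12.34 in the wild type arrays. That was the largest difference in size among the tested probe sets, 15.4-fold lower (limma on arrays, adjusted p = 1.24e-20). Saa2, its close copy, was at 12.09, 12.12 and 12.17 against 13.95, 13.86 and 13.80 in wild type liver, 3.35-fold lower. The genes are near-identical in sequence, so their probe sets may share signal. Orm3, an orosomucoid, was at 9.51, 9.32 and 9.41 in Myc+/- liver, against 11.04, 11.02 and 11.03 in wild type liver. Orm2, its neighbour and near copy, was at 12.60, 12.66 and 12.60 against 13.95, 13.59 and 13.62 in wild type liver. In each of these 4 genes every Myc+/- array lay below every wild type array.

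The other acute phase genes that fell work in several ways. Lcn2, a lipocalin that binds bacterial siderophores, was at 12.94, 12.88 and 12.89 in Myc+/- liver, against 13.96, 13.89 and 13.88 in wild type liver. Apcs, serum amyloid P, an acute phase pentraxin of mice, was at 11.66, 11.53 and 11.51 in Myc+/- liver, against 12.80, 12.77 and 12.68 in wild type liver. Mt1, a metallothionein that binds zinc, was at 11.63, 11.59 and 11.69 in Myc+/- liver, against 12.93, 12.95 and 12.92 in wild type liver. Mt2 fell by 0.63, Saa3, an amyloid made also by macrophages, by 0.89, and Steap4, a metalloreductase named here after its values were seen, by 1.16 on the log2 scale. The haptoglobin gene Hp differed by -0.49 and the C-reactive protein gene Crp by -0.11 without a call, and Hamp, the iron hormone hepcidin, at 0.23 was the 1 member above 0. At the pool level 0 of the 27 passed (limma, lowest adjusted p = 0.0624), and 11 had an unadjusted p below 0.05. The spread taken over from muscle and adipose tissue was wide for some of them, with a standard error of 0.47 for Saa1 and 1.04 for Saa2.

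The promoters of 4 of these genes are shown because the members moved together, from RefSeq on GRCm38.p6, each a window of 300 bases that ends shortly after the gene start. Capitals mark TTGCNNAA, a motif of C/EBP factors, searched on both strands.
Saa1 (chr7:46742931-46743230, minus strand): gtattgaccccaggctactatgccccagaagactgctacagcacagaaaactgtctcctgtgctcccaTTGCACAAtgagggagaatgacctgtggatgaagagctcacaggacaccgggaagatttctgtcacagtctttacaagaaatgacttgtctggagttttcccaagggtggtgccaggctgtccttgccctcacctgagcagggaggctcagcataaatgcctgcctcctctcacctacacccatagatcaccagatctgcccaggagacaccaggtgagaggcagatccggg
Saa2 (chr7:46751583-46751882, plus strand): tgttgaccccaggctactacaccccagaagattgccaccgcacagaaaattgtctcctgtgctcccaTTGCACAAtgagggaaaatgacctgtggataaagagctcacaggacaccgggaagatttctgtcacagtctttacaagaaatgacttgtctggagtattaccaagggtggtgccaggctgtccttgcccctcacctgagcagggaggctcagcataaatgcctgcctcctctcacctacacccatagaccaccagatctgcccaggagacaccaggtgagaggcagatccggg
Lcn2 (chr2:32387690-32387989, minus strand): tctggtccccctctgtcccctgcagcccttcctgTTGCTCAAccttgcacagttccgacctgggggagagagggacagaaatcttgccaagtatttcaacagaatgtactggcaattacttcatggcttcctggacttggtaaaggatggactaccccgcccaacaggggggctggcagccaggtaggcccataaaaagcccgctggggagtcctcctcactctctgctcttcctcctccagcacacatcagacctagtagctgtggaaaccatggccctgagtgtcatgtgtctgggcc
Orm2 (chr4:63362199-63362498, plus strand): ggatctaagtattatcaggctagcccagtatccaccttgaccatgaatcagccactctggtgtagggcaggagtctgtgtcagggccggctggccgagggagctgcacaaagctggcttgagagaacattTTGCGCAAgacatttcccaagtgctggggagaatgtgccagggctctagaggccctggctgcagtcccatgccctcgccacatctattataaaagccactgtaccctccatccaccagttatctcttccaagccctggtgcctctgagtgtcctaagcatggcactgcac

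Each of the 4 holds 1 match, and in Saa1 and Saa2 it is the same 8 bases in nearly the same place. Of the 27 genes, 23 had a promoter in the table, with 25 windows, of which 12 (48%) held TTGCNNAA, against 10.8% of all 32851 windows. A STAT motif, TTCNNNGAA, was in 7 of the 25 (28%), against 8.30% of all windows, and an NF-kB motif in 4 (16%), against 1.63%. The E-box CACGTG, to which Myc and Max bind, was in 0 of the 25, against 7.15% of all windows. In all 9 motifs were searched with the results known, both strands each; a looser NF-kB motif contains the first, a PTF1 motif and the CCAAT, sterol and DR1 motifs make up the rest, and the other motifs do not contain each other. A match is a description of the letters and not a bound site.

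**Figure D2:**
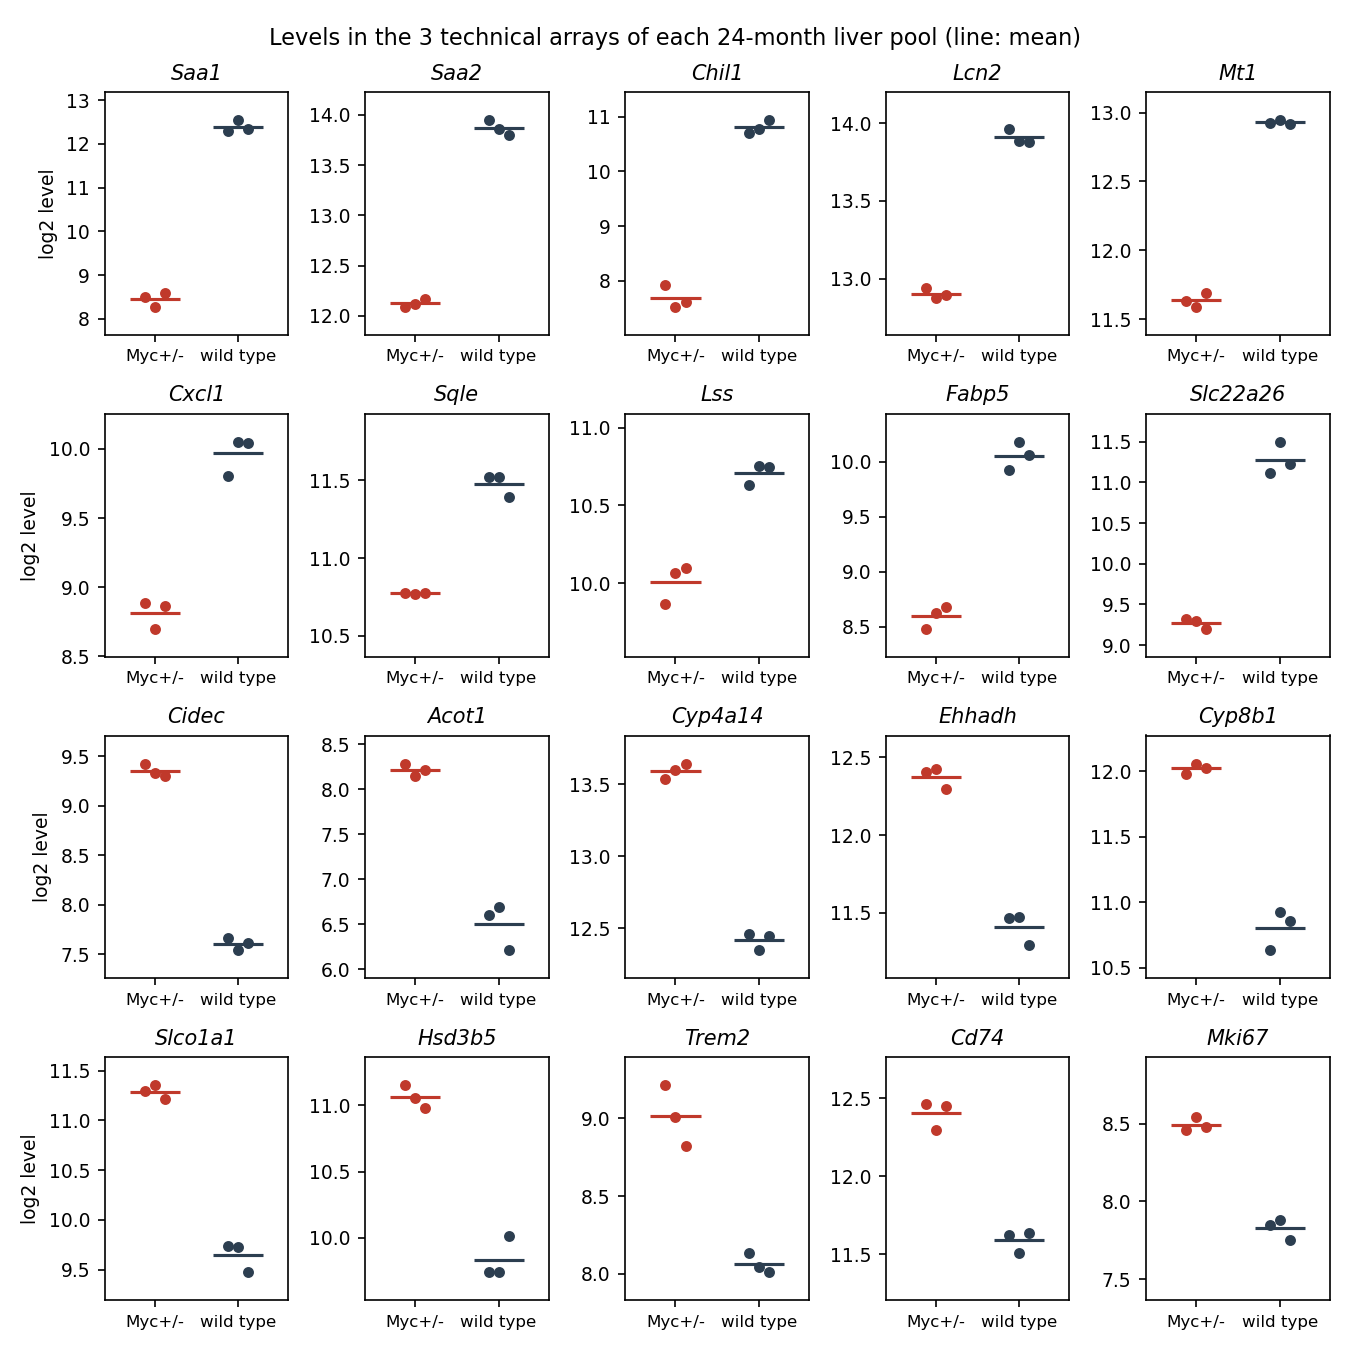
Log2 level of 20 genes in each of the 3 technical arrays of the Myc+/- pool (red, left) and the wild type pool (dark, right) of 24-month liver; lines are the means and each panel has its own vertical range. The arrays of the 2 pools are apart in every panel, with Saa1 lower and Cidec higher in Myc+/- liver.

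Several other genes fell, and some of them passed the pool-level test. Chil1, a secreted chitinase-like protein made by macrophages and neutrophils, was at 7.92, 7.52 and 7.62 in Myc+/- liver, against 10.71, 10.78 and 10.94 in wild type liver. It was 8.72-fold lower (pool-level limma, adjusted p = 0.0196). Slc22a26, of the organic anion transporter family, was at 9.32, 9.30 and 9.20 in Myc+/- liver, against 11.11, 11.50 and 11.22 in wild type liver (pool-level limma, adjusted p = 0.0357). Dmbt1, a secreted scavenger protein of epithelia, was at 8.16, 8.40 and 8.55 in Myc+/- liver, against 9.98, 10.27 and 10.04 in wild type liver (pool-level limma, adjusted p = 0.0186). Dmbt1 passed the filter on low values only with the 24-month wild type pool, so that its call is no support. The groups did not overlap in Chil1, Slc22a26 or Dmbt1. Fabp5, a fatty acid binding protein, was at 8.48, 8.62 and 8.68 in Myc+/- liver, against 9.93, 10.18 and 10.06 in wild type liver, and its other tested probe set differed by -1.47. Slc13a5, the citrate transporter of hepatocytes, was at 7.36, 7.41 and 7.45 in Myc+/- liver, against 8.77, 8.66 and 8.71 in wild type liver. Dnajc12, a cochaperone that in humans serves aromatic amino acid hydroxylases, was at 8.90, 8.85 and 9.09 in Myc+/- liver, against 10.35, 10.52 and 10.48 in wild type liver. All 3 passed the pool-level limma (adjusted p = 0.048, 0.0276 and 0.0186). Tifa, an adaptor in NF-kB signalling, fell by 1.19, and Atp6v0d2, a subunit of the vacuolar proton pump, by 1.34. Tifa passed the pool-level limma (adjusted p = 0.0492) and Atp6v0d2 did not (adjusted p = 0.571).

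Fatty acid oxidation and PPAR alpha target genes were higher in old Myc+/- liver. PPAR alpha is the fatty acid sensor that raises peroxisomal and mitochondrial oxidation in fasting. All 26 tested members lay above 0, 8 rose and 0 fell, with a median of 0.37. Acot1, a cytosolic acyl-CoA thioesterase, was at 8.28, 8.15 and 8.22 in the Myc+/- arrays, against 6.60, 6.69 and 6.21 in the wild type arrays, 3.29-fold higher. Cyp4a14, a fatty acid omega-hydroxylase, was at 13.54, 13.60 and 13.64 in Myc+/- liver, against 12.46, 12.35 and 12.44 in wild type liver. Ehhadh, the bifunctional enzyme of peroxisomal oxidation, was at 12.40, 12.42 and 12.30 in Myc+/- liver, against 11.47, 11.47 and 11.30 in wild type liver. No array of one pool reached the other pool in these genes. Acaa1b, the peroxisomal thiolase, rose by 0.89 and Vnn1, a pantetheinase, by 0.80. Acot2, Cyp4a31 and Pex11a, which were named after their values were seen, rose by 0.77, 0.67 and 0.63. The Acot and Cyp4a genes have close copies that probe sets may not separate.

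Other members were not called. Cpt1a, which controls the entry of fatty acids into mitochondria, was at 12.77 in Myc+/- liver and 12.51 in wild type liver, and the dehydrogenase genes Acadvl and Acadl differed by 0.03 and 0.04. In the pool-level limma 0 of the 26 passed (lowest adjusted p = 0.071 for Acot1), while 17 had an unadjusted p below 0.05. Among 37 oxidative phosphorylation genes 0 were called, 27 lay above 0 and the median was 0.08. Of these, 9 were higher and 2 lower by adjusted p without a minimum fold (limma on arrays). The largest was Ndufb3, of complex I, at 0.38.

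Genes of fat storage diverged. Cidec, a lipid droplet protein that fuses droplets, was at 9.43, 9.33 and 9.30 in Myc+/- liver, against 7.67, 7.54 and 7.62 in wild type liver, 3.35-fold higher. Mfsd2a, a lysophospholipid transporter, rose by 0.61, while Pnpla3, a lipid droplet lipase, was at 7.15, 6.79 and 6.81 in Myc+/- liver, against 7.84, 7.67 and 7.89 in wild type liver. These were the 3 called among 19 tested members, 13 of which lay above 0 (median 0.26). Fitm1 differed by 0.58 and Lpin1, a phosphatidate phosphatase, by -0.56, both just under 1.5-fold. Of 24 fatty acid and triglyceride synthesis genes, 17 lay below 0 (median -0.11), and Fasn, which makes palmitate, differed by -0.51. One member rose, Elovl3, an elongase of very long chain fatty acids (0.85), and Pnpla3 was the one that fell; a second probe set of Acaca, the acetyl-CoA carboxylase, was also called lower (-0.60), but not the one used. By the pool-level limma 0 members of either list passed, with an unadjusted p below 0.05 for 12 of the 19 and 4 of the 24. Cidec had a pool-level standard error of 0.35 (adjusted p = 0.186).

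Cholesterol synthesis genes were lower as a group. Of 20 tested members, 19 lay below 0, 4 fell and 0 rose, and the median was -0.31. Sqle, the squalene epoxidase, was at 10.78, 10.77 and 10.78 in Myc+/- liver, against 11.52, 11.52 and 11.39 in wild type liver. Lss, the lanosterol synthase that follows it, was at 9.87, 10.06 and 10.10 in Myc+/- liver, against 10.63, 10.75 and 10.75 in wild type liver. Both were 1.63-fold lower, with no overlap between the arrays. Hmgcs1, the synthase that makes HMG-CoA, and Mvk, the mevalonate kinase, each fell by 0.60, just past the 1.5-fold limit. Hmgcs1 lost its call without Myc+/- array 1 (-0.54) or wild type array 2 (-0.58), and Mvk without Myc+/- array 3 (-0.57) or wild type array 3 (-0.56). Idi1, the isopentenyl diphosphate isomerase, differed by -0.53 and Srebf2, the master regulator of the pathway, by -0.25 without a call. With no minimum fold 16 of the 20 were lower (limma on arrays, adjusted p below 0.05). At the pool level 0 passed (lowest adjusted p = 0.148), and 12 had an unadjusted p below 0.05.

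Promoters of 3 of these are shown for the CCAAT box they share, with matches on either strand (CCAAT or its complement) in capitals, from the same RefSeq table and window.
Hmgcs1 (chr13:119690101-119690400, plus strand): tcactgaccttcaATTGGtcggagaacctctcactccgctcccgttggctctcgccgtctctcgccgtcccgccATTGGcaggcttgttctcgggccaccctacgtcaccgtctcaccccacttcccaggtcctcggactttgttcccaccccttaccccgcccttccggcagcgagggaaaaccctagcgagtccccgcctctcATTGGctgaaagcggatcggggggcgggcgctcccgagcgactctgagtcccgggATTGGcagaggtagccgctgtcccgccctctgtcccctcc
Lss (chr10:76531355-76531654, plus strand): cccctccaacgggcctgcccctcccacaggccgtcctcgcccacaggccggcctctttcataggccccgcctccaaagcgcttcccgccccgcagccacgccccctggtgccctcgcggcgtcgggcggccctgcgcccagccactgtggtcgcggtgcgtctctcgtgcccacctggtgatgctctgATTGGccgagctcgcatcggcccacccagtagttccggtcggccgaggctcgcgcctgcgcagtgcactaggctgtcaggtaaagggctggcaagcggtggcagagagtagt
Mvk (chr5:114444019-114444318, plus strand): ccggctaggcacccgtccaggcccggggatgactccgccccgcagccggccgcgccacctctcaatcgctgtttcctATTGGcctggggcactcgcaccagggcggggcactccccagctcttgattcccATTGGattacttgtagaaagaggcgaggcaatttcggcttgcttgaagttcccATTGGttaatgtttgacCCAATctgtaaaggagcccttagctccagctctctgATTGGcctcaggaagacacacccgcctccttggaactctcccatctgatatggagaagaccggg

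Hmgcs1 holds 4 CCAAT boxes, Lss 1 and Mvk 5. A promoter was in the table for 16 of the 20 genes, with 19 windows, of which 16 (84.2%) held CCAAT, against 37.4% of all windows, 13 of the 22 oxidation windows (59.1%) and 2 of the 25 acute phase windows (8%). TCACNCCAC, the letters of a sterol regulatory element, were in 1 of the 19 (5.26%), against 2 of the 25 acute phase windows (8%) and 1.24% of all windows. The E-box CACGTG was in 4 of the 19 (21.1%), against 7.15%. The DR1 motif of PPAR factors was in 0 of 22 windows of the oxidation genes, against 0.381% of all windows.

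Bile acid genes changed in a pair of members. Cyp8b1, the enzyme that sets the share of cholic acid, was at 11.98, 12.06 and 12.03 in Myc+/- liver, against 10.63, 10.93 and 10.86 in wild type liver, 2.32-fold higher. Slco1a1, an uptake transporter for bile acids and other organic anions, was at 11.29, 11.35 and 11.21 in Myc+/- liver, against 9.74, 9.73 and 9.48 in wild type liver, 3.11-fold higher. The other 21 of 23 tested members were not called and the list's median was 0.06. The pool-level limma passed 0 of the 23 (lowest adjusted p = 0.0903), and 4 had an unadjusted p below 0.05. Cyp7a1, the rate-limiting enzyme of bile acid synthesis, was at 11.88 in Myc+/- liver and 11.80 in wild type liver.

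Some genes with male-biased expression in liver were higher and some female-biased genes lower. Slco1a1 is also on the male-biased list, of whose 22 tested members 6 rose, 0 fell and 15 lay above 0 (median 0.26). Hsd3b5, a steroid dehydrogenase of male liver, was at 11.15, 11.05 and 10.98 in Myc+/- liver, against 9.74, 9.74 and 10.01 in wild type liver. Elovl3 rose by 0.85, Mup21, a major urinary protein whose close copies may share signal, by 0.64, Cyp2d9, a testosterone hydroxylase, by 0.61 and Selenbp2, named after its values were seen, by 0.60. Of 12 tested female-biased genes, 2 fell, 0 rose, 7 lay below 0 and 5 above, and the median was -0.11. Cyp2b9, a cytochrome of female liver, was at 12.34, 12.18 and 12.23 in Myc+/- liver, against 13.27, 13.32 and 13.30 in wild type liver, and Cyp17a1, the steroid 17-hydroxylase, fell by 0.63. Cux2, a transcription factor specific to female liver, differed by -0.50 without a call, and Acot3 and Tox by 0.44 and 0.28 without a call.

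In the growth hormone and IGF axis 1 of 19 tested genes rose and 2 fell. Bcl6, a transcriptional repressor that growth hormone lowers, was at 9.87, 9.84 and 10.01 in Myc+/- liver, against 9.09, 9.28 and 9.10 in wild type liver. Socs2, a feedback inhibitor of growth hormone signalling, was at 10.52, 10.36 and 10.58 in Myc+/- liver, against 11.33, 11.34 and 11.38 in wild type liver, while its other tested probe set differed by only -0.39. Igfbp1, a binding protein that limits free IGF-1, was at 9.86, 9.86 and 9.87 in Myc+/- liver, against 10.69, 11.04 and 10.98 in wild type liver. Igf1 itself was at 12.89 in Myc+/- liver and 12.80 in wild type liver. At the pool level 0 members of the male-biased, female-biased and growth hormone lists passed (limma, lowest adjusted p = 0.0686, 0.0686 and 0.0894), with an unadjusted p below 0.05 for 7, 4 and 7.

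**Figure D3:**
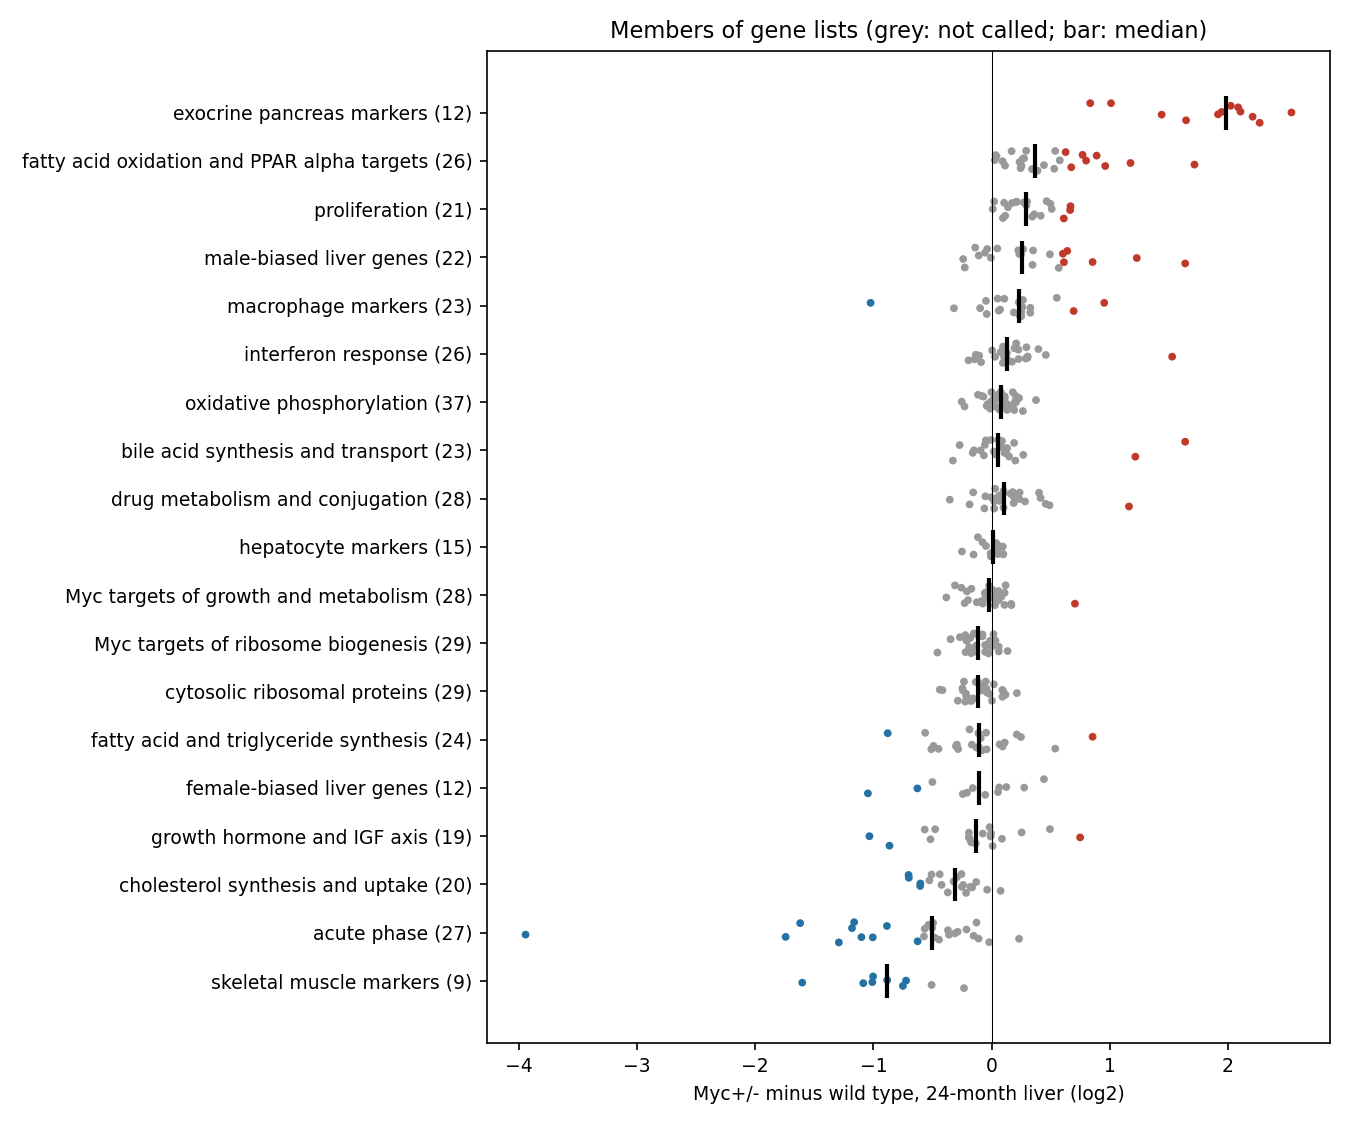
Difference between the Myc+/- and wild type pools of 24-month liver (log2, horizontal axis) for every tested member of 19 gene lists, 1 point per gene, with the number of tested members in brackets; red and blue points were called higher and lower, and bars are medians. Acute phase genes lie left of 0 apart from 1, and the 26 oxidation genes and 21 proliferation genes lie right of it.

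Few members of other lists were called. Of 28 drug metabolism genes 1 rose: Cyp2c55, a cytochrome that oxidizes arachidonic acid, at 9.54, 9.49 and 9.74 in Myc+/- liver, against 8.18, 8.38 and 8.72 in wild type liver, which passed at the pool level (adjusted p = 0.0459). Ephx1 and the glutathione transferase Gsta4 differed by 0.49 and 0.46 without a call, and the list's median was 0.10. In the stress lists Hspb1, a small heat shock protein, rose to 10.13, 10.04 and 10.01 in Myc+/- liver, against 9.20, 9.05 and 9.03 in wild type liver, and Asns, the asparagine synthetase, rose by 0.67. The other 20 of 22 unfolded protein and heat shock genes were not called, and the endoplasmic reticulum genes Creld2 and Sdf2l1 differed by -0.58 and -0.49. Fos, the immediate early transcription factor, was at 7.96, 7.86 and 7.92 in Myc+/- liver, against 6.98, 6.79 and 6.88 in wild type liver, the 1 called of 14 immediate early genes. Dbp, a clock output factor, rose by 0.78 and was the 1 called of 18 clock genes by the probe set used for each gene. The repressor gene Ciart differed by 0.43 without a call, while its other probe set, at 0.59, was called. The hour of dissection is not given in the sources used here. With no minimum fold (limma on arrays, adjusted p below 0.05), 7 drug metabolism genes were higher and 0 lower, 3 unfolded protein and heat shock genes higher and 8 lower, 4 immediate early genes higher and 3 lower, and 7 clock genes higher and 1 lower. The pool-level limma passed 1, 0, 0 and 0 members of these lists, with an unadjusted p below 0.05 for 3, 9, 5 and 2.

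In 4 further lists no member was called. Of 16 gluconeogenesis and glycolysis genes 0 were called (median 0.06), the largest being the glucose transporter Slc2a2 at 0.52. Of 22 amino acid and urea cycle genes 0 were called (median 0.05). The 16 antioxidant genes had 0 calls (median 0.01), with Osgin1 at -0.52 and the haem oxygenase Hmox1 at 0.52. The 13 senescence and p53 target genes had 0 calls (median -0.01), the largest being the cell cycle inhibitor Cdkn2b at -0.25. By adjusted p without a minimum fold (limma on arrays), 4, 2, 5 and 0 members of these lists differed, and by the pool-level limma 0 passed, with unadjusted p below 0.05 for 2, 0, 2 and 0.

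Cell division genes were higher. All 21 tested members of 29 on the array lay above 0, 3 rose and the median was 0.29 (0.106 with a 60th percentile filter on low values). Mki67, a marker of cycling cells, was at 8.46, 8.54 and 8.48 in Myc+/- liver, against 7.85, 7.88 and 7.75 in wild type liver. The cyclins Ccna2 and Ccnb2 rose by 0.67 and 0.61, and Mcm2, of the replication helicase, differed by 0.50 without a call. Which cells of the liver carried these transcripts was not measured. None of the 21 passed the pool-level limma (lowest adjusted p = 0.15), and 7 had an unadjusted p below 0.05.

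Genes of macrophages and antigen presentation were mostly higher. Of 23 tested macrophage markers 2 rose, 1 fell and 18 lay above 0 (median 0.23), and the summed linear level of the 26 on the array was 48789 to 49869 in the Myc+/- arrays and 42358 to 43708 in the wild type arrays. Trem2, a lipid receptor of macrophages, was at 9.21, 9.01 and 8.82 in Myc+/- liver, against 8.13, 8.04 and 8.01 in wild type liver. Cd68, a lysosomal protein of macrophages, rose by 0.69, but Cd14, the lipopolysaccharide coreceptor, fell by 1.02. The pool-level limma passed 0 of the 23 (lowest adjusted p = 0.109), and 1 had an unadjusted p below 0.05. Cd74, the invariant chain of MHC class II, was at 12.46, 12.30 and 12.45 in Myc+/- liver, against 11.62, 11.50 and 11.64 in wild type liver. H2-Aa, an MHC class II chain, was at 11.50, 11.61 and 11.56 in Myc+/- liver, against 10.64, 10.73 and 10.92 in wild type liver.

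Further lists were written after their values were seen. Of 7 tested MHC class II genes 3 rose, and of 14 C-type lectins and pattern receptors 8 rose, among them Clec4n (1.07) and Clec7a (0.87), receptors for fungal sugars. Chemokines went both ways, with 5 of 17 higher, among them Ccl7 (1.12) and Ccl3 (1.09), and Cxcl1, a neutrophil attractant, lower at 8.89, 8.70 and 8.87 in Myc+/- liver, against 9.81, 10.05 and 10.04 in wild type liver. Cxcl1 passed at the pool level (adjusted p = 0.0457). Cxcl10, a chemokine that interferon raises, was at 9.65, 9.54 and 9.58 in Myc+/- liver, against 7.96, 8.17 and 8.06 in wild type liver, and passed likewise (adjusted p = 0.0457). It was the 1 called of 26 interferon response genes (median 0.13).

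Calls among markers of other cell types were few. Of 10 tested T and NK cell markers 1 rose, Cd4 by 0.62, and 6 lay above 0 (median 0.06). Lyve1, a hyaluronan receptor of sinusoidal and lymphatic endothelium, was at 10.53, 10.53 and 10.65 in Myc+/- liver, against 9.38, 9.43 and 9.51 in wild type liver, the 1 called of 15 endothelial markers. Mmp13, a collagenase, was at 8.58, 8.59 and 8.96 in Myc+/- liver, against 6.84, 6.81 and 6.97 in wild type liver (pool-level limma, adjusted p = 0.0196), the 1 called of 22 collagen and matrix genes. Mmp13 passed the filter on low values only with the 24-month Myc+/- pool, so that its call is no support. Of 14 cholangiocyte markers 6 passed the filter on low values, all 6 below 0, and Muc1 and Tff3, mucosal proteins, fell by 0.96 and 0.74. Muc1 passed that filter only with the 24-month wild type pool. Among immunoglobulin genes, Igha, the IgA heavy chain, fell to 7.85, 7.95 and 8.17 in Myc+/- liver, against 9.21, 9.33 and 9.30 in wild type liver. Ighm fell by 0.68. Of 11 tested B and plasma cell markers, these 2 fell, Cd74 and H2-Aa rose, and 7 lay above 0 (median 0.03). Of 16 neutrophil markers on the array 13 lay above 0, as did 8 of the 10 tested (median 0.35), with Retnlg higher by 0.95 and Lcn2 and Prtn3 lower. Their summed level was 11972 to 12540 in Myc+/- arrays and 18543 to 19587 in wild type arrays. Lcn2, also an acute phase gene of hepatocytes, made up most of it: without Lcn2 the sum was 4452 to 4691 in Myc+/- arrays and 3512 to 4041 in wild type arrays.

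Transcripts of pancreas, muscle and blood also differed between the 2 liver pools. Of 24 exocrine pancreas markers on the array, 23 were higher in the Myc+/- pool (median 1.54). The 12 that passed the filter on low values were all called. Without the 24-month Myc+/- pool 3 of them (Cel, Pnliprp2 and Rnase1) lay below that filter, so that this count is no support. Cpa1, a pancreatic carboxypeptidase, was at 11.14, 11.08 and 11.00 in Myc+/- liver, against 8.52, 8.59 and 8.50 in wild type liver (pool-level limma, adjusted p = 0.0128). It averaged 6.77 in both 5-month pools. The summed level of the 24 was 11518 to 13426 in the Myc+/- arrays, 3361 to 3503 in the wild type arrays, and 2054 to 2276 over the 5-month arrays. Thus the 24-month wild type pool also lay above both young pools. Of 16 skeletal muscle markers, all 16 were lower in the Myc+/- pool, and 7 of 9 tested were called. Their summed level was 2374 to 2520 in the 24-month Myc+/- arrays and 4197 to 4393 in the 24-month wild type arrays. At 5 months it was 2449 to 2705 in the Myc+/- arrays and 2806 to 3367 in the wild type arrays (median difference of the 16, -0.25). Thus the 24-month wild type pool lay above the other liver pools. Myl1, a myosin light chain of fast muscle, was at 7.35, 6.88 and 6.98 in Myc+/- liver, against 8.85, 8.73 and 8.44 in wild type liver (pool-level limma, adjusted p = 0.0196).

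Some blood cell transcripts were higher in the Myc+/- pool. Pf4, a platelet chemokine, was at 9.25, 9.27 and 9.27 in Myc+/- liver, against 7.56, 7.36 and 7.57 in wild type liver (pool-level limma, adjusted p = 0.0128). Slc4a1, the anion exchanger of red cells, was at 9.07, 8.96 and 9.01 in Myc+/- liver, against 7.70, 7.44 and 7.59 in wild type liver (pool-level limma, adjusted p = 0.0198). The summed level of 5 erythroid genes was 2801 to 2954 in Myc+/- arrays and 1813 to 1870 in wild type arrays. Of 4 tested, 2 were called, and Klf1 differed by -0.02 without a call. The platelet list was written after its values were seen and is no support. The summed level of its 11 genes was 4328 to 4608 in Myc+/- arrays and 2661 to 2910 in wild type arrays, but their median difference was 0.20. Of 8 tested platelet genes 2 were called. Whether other tissue or blood was carried over with the liver fragments, and whether it bears on the other results, was not tested. Of the 34 probe sets that passed the pool-level test, 9 were tested exocrine pancreas markers and 5 skeletal muscle markers. Among the 9, Cel and Rnase1 passed the filter on low values only with the 24-month Myc+/- pool, so that this count is no support.

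**Figure D4:**
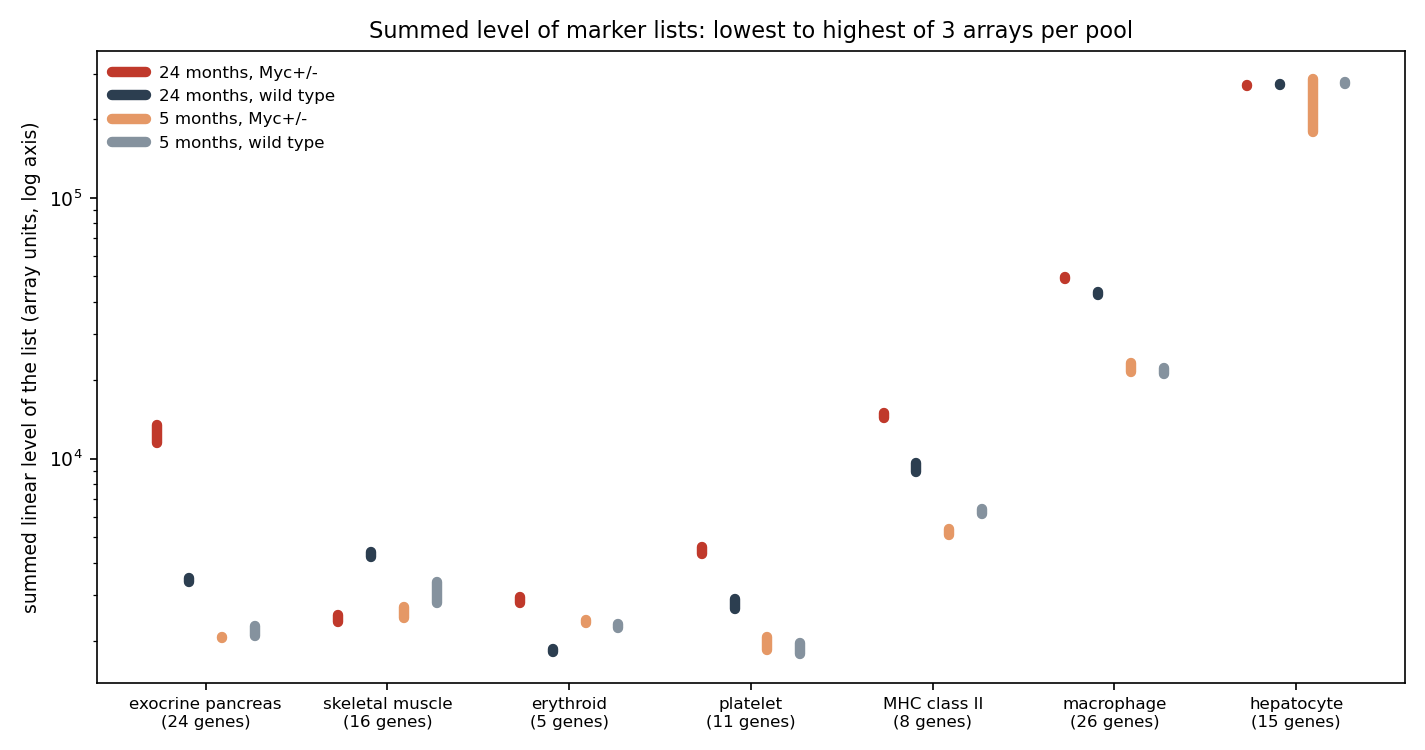
Summed linear level (array units, log axis) of 7 marker lists in the liver pools; each bar runs from the lowest to the highest of the 3 arrays of a pool, in the order 24-month Myc+/-, 24-month wild type, 5-month Myc+/- and 5-month wild type. Pancreas, erythroid, platelet and MHC class II sums are higher and the muscle sum lower in the 24-month Myc+/- pool than in the 24-month wild type pool, while hepatocyte sums are level.

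Few noncoding genes were called. Mir505 was at 11.17, 10.78 and 10.80 in Myc+/- liver, against 12.10, 11.79 and 11.66 in wild type liver, 1.91-fold lower. Its mature products are shown with the seed (bases 2 to 8) in capitals, from RefSeq on GRCm38.p6, minus strand; whether the probe set reads these or the precursor is not given in the sources used here.
mmu-miR-505-3p (chrX:60394416-60394437): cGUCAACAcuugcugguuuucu
mmu-miR-505-5p (chrX:60394451-60394473): gGGAGCCAggaaguauugauguu

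The 2 arms have different seeds. Snora73a and Snora73b, near-identical small nucleolar RNAs whose probe sets may share signal, fell by 0.89 and 0.85. G530011O06Rik fell by 0.77 and Gm21286 rose by 0.85. The pool-level limma passed 0 of these 5 (lowest adjusted p = 0.143, for Mir505), with an unadjusted p below 0.05 for 4.

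The differences at 24 months were set beside those of the 5-month pools, which came from other mice and arrays. By the same rule 60 probe sets were called at 5 months (0.459%), 49 higher (0.375%) and 11 lower (0.0841%). At both ages 6 genes rose: Cidec, 9130409I23Rik, Cyp2c55, Mfsd2a, the acetyltransferase gene Nat8f5 and the glutamate transporter gene Slc17a8. Cidec differed by 1.75 at 24 months and 1.47 at 5 months, and Nat8f5 by 1.40 and 0.93. Myl1, the magnesium transporter gene Nipal1 and Tff3 fell at both ages, Tff3 by 0.74 at 24 months and 0.79 at 5 months. Of the 139 genes that rose at 24 months, 88 (63.3%) had a positive difference at 5 months, where 53.8% of all genes did, and of the 89 that fell, 37 (41.6%) had a negative one.

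The acute phase genes went the other way at 5 months. Saa1 differed by -3.94 at 24 months and by 3.46 at 5 months, Saa2 by -1.74 and 2.92, Orm2 by -1.10 and 2.62, and Lcn2 by -1.01 and 2.56. In all, 11 genes fell at 24 months and rose at 5 months: Saa1, Saa2, Saa3, Orm2, Orm3, Mt1, Mt2, Lcn2, Cxcl1, Cyp2b9 and Mmd2, and Bcl6 did the reverse. In the young pools 8 acute phase genes rose, but the list's median was 0.08. One 5-month Myc+/- array stood apart, with a hepatocyte marker sum of 178319 where the highest 5-month array reached 284670. Without it 62 probe sets were called at 5 months, the counts of 11 and 1 held, 10 genes in place of 6 were higher at both ages (the 6 among them) and 2 in place of 3 lower, without Nipal1. The oxidation genes had a 5-month median of 0.17, the cholesterol genes 0.02, the proliferation genes 0.06 and the male-biased genes -0.15.

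The difference between the ages was tested by the pool-level limma as an interaction, with the same error from muscle and adipose tissue. It called 11 probe sets (0.0841%), and 1097 (8.39%) had an unadjusted p below 0.05. Cpa1 and 7 other genes of pancreatic enzymes and secretions, Pf4, Dnajc12 and Bcl6 were called. Of these 11, Cel and Rnase1 lay below the filter in the mean of the other 3 liver pools. The count rested on single arrays: it was 1 (Clps, the pancreatic colipase) without Myc+/- 24-month array 1, wild type 24-month array 2 or Myc+/- 5-month array 3, it was 0 without wild type 5-month array 2, and 20 without Myc+/- 5-month array 1 or wild type 5-month array 1. Bcl6 differed by 0.75 at 24 months and -1.20 at 5 months (interaction adjusted p = 0.0493). Saa1 just missed the threshold (interaction adjusted p = 0.0516), and the 10 other genes called in opposite directions had higher adjusted p, up to 0.544 for Saa2.

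**Figure D5:**
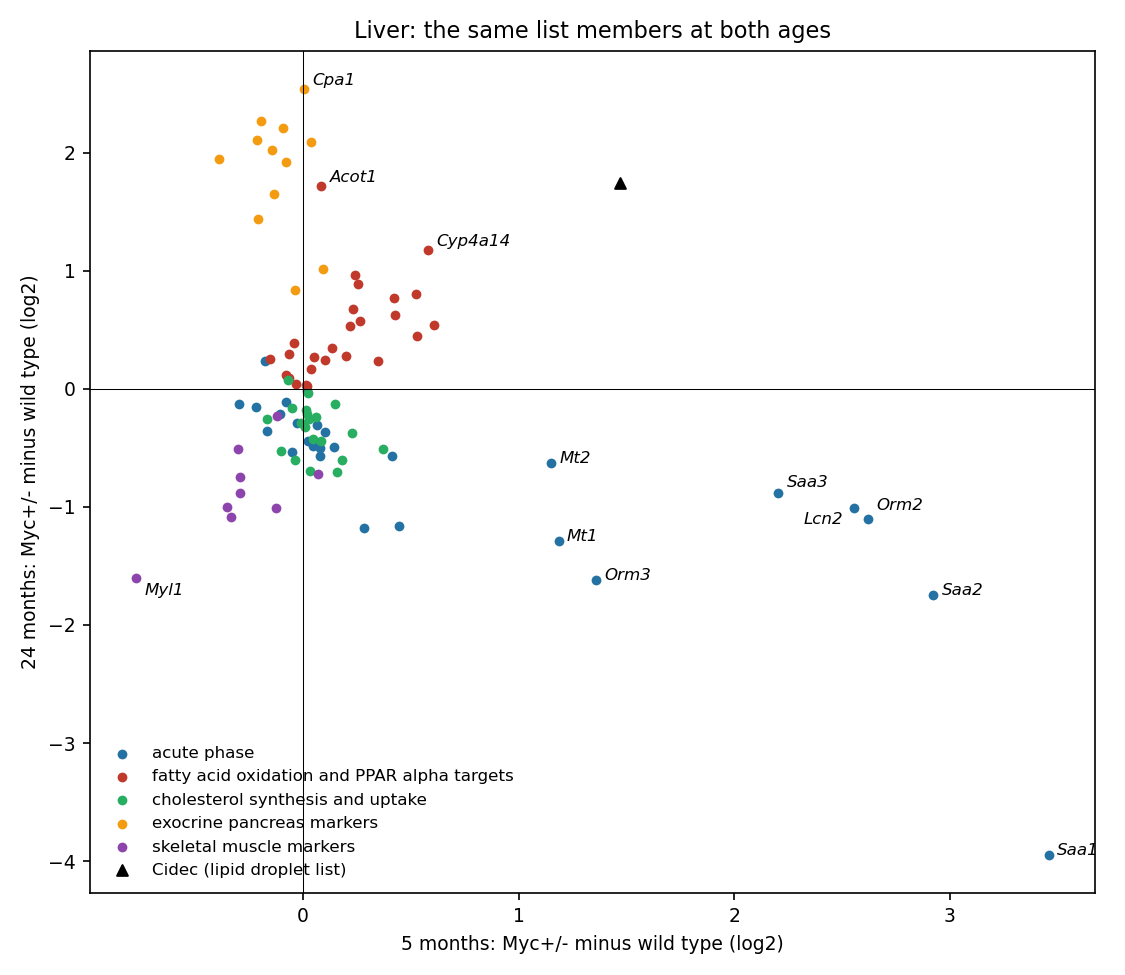
Difference between the Myc+/- and wild type liver pools at 24 months (log2, vertical axis) against that at 5 months (log2, horizontal axis) for tested members of 5 gene lists and Cidec (triangle), 1 point per gene. The serum amyloid, orosomucoid and metallothionein genes and Lcn2 lie at the lower right, and pancreas markers lie high near 0 on the 5-month axis.

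The same lists were also measured in muscle and adipose tissue of the 24-month cohorts. For acute phase genes the medians were -0.50 in liver, 0.08 in muscle and -0.09 in adipose tissue. The oxidation genes had medians of 0.37 in liver, 0.13 in muscle and 0.03 in adipose tissue, and the cholesterol genes -0.31, -0.12 and 0.23. Macrophage markers had medians of 0.23 in liver, -0.44 in muscle and -0.12 in adipose tissue. Members were kept by the liver filter, so some are barely expressed in the other tissues, and differences between tissues were not tested. For 195 of the 228 called genes (85.5%) the difference in 24-month liver was the largest in size of the 6 genotype pairs, against 23.5% of all tested probe sets; the call used that same difference.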

How the data were processed

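RNA was pooled within each cohort, and each pool was hybridized to 3 Affymetrix Mouse Gene 1.0 ST arrays, per the labels' protocols. The deposited values were log2 expression per probe set, made by the authors with RMA in Affymetrix Expression Console, per the submitters' processing notes; no version was given. Tissue was homogenized by hand or by motor, and the labels do not tell the samples of each method apart; their protocols also give conflicting labelling kits. For arrays, their number limits the precision.

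Of 35556 probe sets 21789 had 1 gene symbol, and 13073 of these, with a liver mean above the 40th percentile, were tested. RefSeq tables (GRCm38.p6) gave gene types and sequences. The tools were R 4.3.3, limma 3.58.1 and statmod 1.5.0. A limma model was fitted to the 36 arrays with 1 coefficient per group (24 residual degrees of freedom), and to the 12 pool means (2 residual, 3.59 prior degrees of freedom), both with an intensity trend. The interaction of genotype and age came from the second fit. Lists were described by counts and medians, without a test. Python 3.11.15, pandas 2.3.3 and matplotlib 3.10.9 made tables and figures. Scripts were tested on simulated data. Other filters, folds, normalizations, fits and left-out arrays were tried.

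For each gene the probe set with the highest liver mean was named. The genes named were drawn from the 15 protein-coding genes called with the largest difference in each direction and up to 4 noncoding genes each way. Further sources were Myc and Pvt1, up to 5 members of each list (4 where none was called), and genes called at both ages. Others were chosen after their values were seen: Alb, Steap4, Hp, Crp, Hamp, Acot2, Cyp4a31, Pex11a, Cpt1a, Acadvl, Acadl, Srebf2, Cyp7a1, Selenbp2, Igf1, Clec4n, Clec7a, Ccl7, Ccl3 and Acaca. The members and lists were chosen with earlier results of these data known.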

Additional observations from a re-analysis of the deposited data

Results flagged for a closer look

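The differences below are the 24-month difference between Myc+/- and wild type liver minus the 5-month difference, on the log2 scale, and they stand out because the pools of the 2 ages went apart. The error of the pool-level limma fit came from muscle and adipose tissue, so it does not measure the spread between liver pools. By its interaction term 11 genes passed (limma on pool means, adjusted p between 0.0408 and 0.0493). These were the pancreatic genes Cpa1 (2.53), Cel (2.47), Ctrb1 (2.30), Clps (2.32), Sycn (2.05), Try5 (2.17), Rnase1 (2.34) and Ctrl (2.00), the platelet gene Pf4 (1.85), Bcl6 (1.95) and Dnajc12 (-1.92). Cel and Rnase1 passed the filter on low values only with the 24-month Myc+/- pool, so that their calls are no support. Leaving out single arrays moved this count between 0 and 20, as given with the interaction above.

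Another 11 genes were called lower at 24 months and higher at 5 months by the array-level rule without passing the interaction test (limma on pool means, adjusted p between 0.0516 and 0.544). Their values were Saa1 (-7.40), Saa2 (-4.67), Orm2 (-3.72), Lcn2 (-3.56), Saa3 (-3.09), Orm3 (-2.98), Mt1 (-2.48), Cxcl1 (-1.82), Mt2 (-1.78), Cyp2b9 (-1.73) and Mmd2 (-1.47).

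Outside the main measurement, 56 probe sets that the annotation does not list were called by the same rule, 16 higher and 40 lower in Myc+/- liver, of 4487 above the filter.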

How the results depend on the processing

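The limits of the comparison are that each genotype was 1 pool, that mice were not measured singly, and that pools of 8 and 5 mice were set side by side. Of 237 array-level calls, leaving out 1 array in turn gave 233 to 252 (135 to 159 higher, 93 to 103 lower), and 212 to 225 of the 237 kept their direction. A 60th percentile filter left fewer probe sets and gave 142 (81 higher, 61 lower). A 2-fold minimum gave 66 (36 higher, 30 lower) and no minimum fold 2021 (1150 higher, 871 lower). The other settings gave 236 to 239, or 330 with no filter. At the pool level 34 calls became 4 with the 60th percentile filter, 59 with no filter, 24 without the trend, and 29 to 43 without single arrays. They became 0 with one genotype effect over both ages (limma, lowest adjusted p = 0.152, with 1006 unadjusted p below 0.05) and 0 with an effect common to the tissues at 24 months (0.415, with 802). The interaction gave 27 with no filter, 17 without the trend, and 0 to 20 without single arrays; the 0, without wild type 5-month array 2, had a lowest adjusted p of 0.0501 and 1004 unadjusted p below 0.05. The cause of these moves was not tested, beyond the number of probe sets and arrays that each setting leaves.

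Among named genes, Hmgcs1, Mvk, Mt2, Mfsd2a, Mup21, Cyp2d9, Cyp17a1, Ccnb2 and Slc17a8 lay close to 1.5-fold and lost their call without 1 or more single arrays. Without Myc+/- array 1 the values were -0.54 for Hmgcs1, 0.51 for Ccnb2, 0.57 for Mup21 and 0.58 for Cyp2d9, and without Myc+/- array 2 it was 0.58 for Slc17a8. Without Myc+/- array 3 they were 0.56 for Slc17a8 and -0.57 for Mvk. Without wild type array 1 they were 0.54 for Mfsd2a and -0.58 for Mt2, and without wild type array 2 -0.58 for Hmgcs1 and -0.58 for Cyp17a1. Without wild type array 3 they were 0.53 for Slc17a8, -0.56 for Mvk, 0.54 for Ccnb2 and 0.56 for Mup21. The reversed values belonged to genes near 0 and not called: without single arrays, Sst ranged from -0.164 to 0.0432, Klf1 from -0.0588 to 0.0073 and Pigr from -0.101 to 0.0255, and Klf1 was 0.0158 after quantile normalization of the liver arrays. With the 60th percentile filter the medians of neutrophil markers (-0.307, from 0.348) and T and NK cell markers (-0.0374, from 0.0573) turned, and that of proliferation genes was 0.106 (0.294 as reported). The antioxidant median (0.0123) was -0.014, -0.0223 and -0.0279 without Myc+/- array 2, wild type array 2 and wild type array 3, and the bile acid median (0.0576) was 0.0064 without wild type array 3. With the replicate number as a block, 237 probe sets were called again (141 higher, 96 lower), so that the block changed no count. Deviations of same-numbered arrays correlated at 0.405, -0.0238 and 0.285 for numbers 1, 2 and 3, and those of different numbers at -0.418 to 0.192. Numbers 1 and 3 thus lay above that range and number 2 within it, so whether the numbers pair the arrays is not settled.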
